A study of Mus musculus with 2 samples.

Results

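Maf, Nr1h3, Pparg, Cebpb, Tfec, Bhlhe40 and Irf5 are 7 transcription factor genes with known roles in macrophages, described here as a set out of 55450 genes in the deposited matrices. Their transcripts were counted as unique molecular identifiers (UMIs, 1 per captured mRNA molecule) in immune cells from mouse tumours and followed from macrophages to monocytes, neutrophils and dendritic cells. The tumours were subcutaneous B16F10 melanomas, a transplantable mouse line, harvested on day 10. The library called WT came from Kcnj2f/f mice, which carry Kcnj2 alleles flanked by recombination sites. The library called KO came from Lyz2-Cre-Kcnj2f/f mice, in which Cre recombinase under control of the Lyz2 locus acts mainly in macrophages, monocytes and neutrophils. Both genotypes therefore carry the floxed alleles. Each library pooled the CD45+ cells of 3 mice, the labels name no further strain or age, and there was 1 library per genotype. Every difference is thus one between 2 libraries. It has no replicate check, no p-value was computed, and all intervals are 95% intervals that cover counting error only. The series asks what Kir2.1, the potassium channel that Kcnj2 encodes, does in the tumour environment.

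These factors sit at different points of macrophage biology. Cebpb encodes C/EBPβ, a leucine zipper factor of myeloid cells that is induced by inflammatory signals and needed for Arg1 expression. Maf encodes c-MAF, a large MAF family factor that helps to hold macrophages in a differentiated, non-dividing state and promotes Il10 and complement genes. Nr1h3 encodes LXRα, a nuclear receptor for oxysterols that drives cholesterol efflux genes, and Pparg encodes PPARγ, a nuclear receptor for fatty acid ligands. Both bind DNA as partners of the retinoid X receptors. Tfec belongs to the MiT family of basic helix-loop-helix factors, with Mitf, Tfeb and Tfe3, and its expression is largely limited to macrophages. Bhlhe40 encodes a transcriptional repressor linked to the circadian clock that limits Il10 in immune cells. Irf5 encodes an interferon regulatory factor that acts below Toll-like receptors and MyD88 and is known for driving inflammatory cytokine genes.

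After filtering, 8936 WT and 5687 KO cells remained, with medians of 4398.5 and 8021 UMIs per cell. Clusters were named from fixed marker lists and carry the suffix -like. Macrophage-like cells numbered 712 in WT and 1035 in KO, monocyte-like cells 257 and 435, neutrophil-like cells 145 and 24. The dendritic classes were type 1 conventional (cDC1-like, 206 and 354 cells), type 2 conventional (cDC2-like, 589 and 964), migratory (432 and 648) and plasmacytoid (pDC-like, 211 and 142). All 12 macrophage markers were detected in the macrophage-like cells of both libraries, with summed levels of 6012 and 5754 counts per 1000000 UMIs of the class (CPM). Between the libraries 63 barcode sequences were shared, 61 of them among kept cells, and no ratio described here moved outside its interval when those cells were left out. Kcnj2 was at 24.1 CPM in WT and 9.70 in KO macrophage-like cells, from 112 and 86 UMIs. Tags at the 3′ end need not lie in the deleted part, so this checks the labels only in part. Lyz2, the gene at the Cre locus, was at 7675 CPM in WT and 1410 in KO macrophage-like cells.

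T cell and B cell transcripts were more frequent in the WT myeloid classes. The 7 T cell markers summed to 226 CPM in WT and 42.8 in KO macrophage-like cells, and to 248 and 54.8 CPM in cDC1-like cells. The 7 B cell markers summed to 177 and 13.5 CPM in macrophage-like cells. At least 1 T cell marker UMI was present in 32.7% of WT and 12.2% of KO macrophage-like cells. These values move with genotype beside every comparison of WT and KO below. T cells hold Maf and Bhlhe40 themselves. CD4 T cell-like cells held 546 CPM of Maf in WT and 638 CPM in KO, and 372 and 333 CPM of Bhlhe40, each above the macrophage-like cells of the same library. CD8 T cell-like cells held 60.6 and 82.1 CPM of Maf and 208 and 241 CPM of Bhlhe40. Where the data show how far they reach, the values are given. Otherwise their part in a result was not tested.

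C/EBPβ is made from a single-exon gene, whereas Tfec is spliced from up to 7 exons, and both genes were far higher in macrophage-like and monocyte-like than in dendritic cells. Their promoters are shown because they are the most and among the least CpG-rich of the members while the genes followed each other across classes. The 150 bases upstream of the annotated start are given 5′ to 3′ on the gene's own strand from RefSeq (GRCm38.p6), with CpG dinucleotides in capitals. The Cebpb sequence lies at chr2:167688765-167688914 on the plus strand and the Tfec sequence at chr6:16898442-16898591 on the minus strand.
Cebpb: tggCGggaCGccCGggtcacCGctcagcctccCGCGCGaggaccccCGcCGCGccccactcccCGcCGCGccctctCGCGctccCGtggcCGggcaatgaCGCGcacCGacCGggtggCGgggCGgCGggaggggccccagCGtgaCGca
Tfec: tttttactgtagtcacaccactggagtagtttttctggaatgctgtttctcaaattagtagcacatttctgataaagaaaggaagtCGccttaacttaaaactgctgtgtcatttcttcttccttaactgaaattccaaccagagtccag
Over 250 upstream bases, Cebpb held 41 CpG, more than 98.9% of the 32851 mouse promoters in the table, whose median was 6, and its GC content was 81.6%. Tfec held 2 CpG at a GC content of 39.2%, and 18.8% of promoters held fewer. Irf5 held 25 CpG, the 2 promoters of Nr1h3 held 7 and 8, and the 3 promoters of Pparg held 38, 12 and 2. Maf and Bhlhe40 had no entry. On both strands of the 8 member promoters (250 bases before to 50 after the start), TATAAA was present for Cebpb and Pparg and in 13.6% of all promoters. No match was found for the C/EBP-type motifs TTGCNNAAT and TTGCNNCAA (2.40% and 2.08% of all promoters), the AP-1 type TGANTCA (7.81%), the PU.1 type GAGGAAGT (3.20%) or the E box CACGTG (7.15%). The IRF-type double GAAA (3.44%), the MAF-type element (0.387%), the extended E box (0.326%) and the spaced AGGTCA repeats of nuclear receptors (0.0152% and 0.0396%) were also without a match. This says only that these letters are not in the window.

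Cebpb split the myeloid classes sharply. In neutrophil-like cells its level was 1208 CPM in WT and 1738 in KO. Monocyte-like cells held 1002 and 1053 CPM, and macrophage-like cells 736 and 919 CPM. The counting intervals of these 3 classes did not overlap in either library, so the order neutrophil-like, monocyte-like, macrophage-like was the same in both. The gene (chr2:167688915-167690418, GRCm38, plus strand) was far lower in the dendritic classes, at 99.6 and 101 CPM in cDC2-like cells and at 21.4 and 23.4 CPM in cDC1-like cells. At least 1 Cebpb UMI was found in 96.9% of WT monocyte-like cells (median 7865 UMIs per cell) and in 9.35% of B cell-like cells (median 2432 UMIs). The latter serve as a reference class, and whether they express the gene was not tested. With every cell thinned to 1000 UMIs these shares were 64.2% and 4.07%. The cDC1-like share after thinning, 2.44% in WT and 1.69% in KO, was below that of B cell-like cells, and the cDC2-like shares of 9.17% and 8.53% were above it. Whether the authors' counting used strand is not stated in the labels or headers. Tmem189, which overlaps the Cebpb start region on the other strand, was at 131 CPM in WT and 183 in KO macrophage-like cells.

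Tfec (chr6:16833373-16898441, minus strand) was low and restricted. It was at 20.9 CPM in WT and 19.9 in KO macrophage-like cells, and at 20.5 and 25.3 CPM in monocyte-like cells. The intervals of macrophage-like and monocyte-like cells overlapped in both libraries, and no interval for the ratio of these neighbours was computed. In the dendritic classes at most 4 UMIs were seen in any class and library, and all levels were under 1 CPM. B cell-like, CD8 T cell-like, CD4 T cell-like and regulatory T cell-like cells held 0 Tfec UMIs in both libraries. In the 1808 WT B cell-like cells (median 2432 UMIs) this allows a share of cells with a UMI of up to 0.166%, which is no limit on cells that express the gene. Neutrophil-like cells held 2 UMIs in WT and 1 in KO, which cannot place them.

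Maf (chr8:115682942-115707794, minus strand) was at 283 CPM in WT and 346 in KO macrophage-like cells. Monocyte-like cells held 147 and 199 CPM. Both libraries gave the order macrophage-like, monocyte-like, neutrophil-like, with intervals that did not overlap between the leading pair. In WT neutrophil-like cells the 34 Maf UMIs (77.5 CPM) came from 10 of 145 cells. In KO the 4 UMIs (52.7 CPM, 14.3 to 135) came from 1 of 24 cells, and the interval overlapped that of the next class, pDC-like. Every dendritic class was at 21.9 CPM or lower. Shares of dendritic cells with a Maf UMI ran from 4.32% to 8.53%, beside 6.97% of WT and 8.67% of KO B cell-like cells, which had fewer UMIs per cell. After thinning they ran from 0.421% to 2.84%, beside 3.43% and 2.77%. Within each library, the share of thinned dendritic cells with Maf was therefore not above that of B cell-like cells, whose own expression of Maf was not tested.

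The nuclear receptor genes were low throughout. Nr1h3 (chr2:91184061-91202834, minus strand) was at 11.2 CPM in WT and 15.004 in KO macrophage-like cells, from 52 and 133 UMIs. Monocyte-like cells held 7.46 and 5.02 CPM, and migratory DC-like cells 2.39 and 3.80 CPM. In WT the macrophage-like and monocyte-like intervals overlapped, whereas in KO they did not. Pparg (chr6:115360951-115490399, plus strand) was at 16.1 CPM in WT and 16.7 in KO macrophage-like cells, above monocyte-like cells at 6.06 and 9.56 CPM. Its next class was cDC2-like, at 3.41 and 4.34 CPM. No UMI of Nr1h3 or Pparg was found in WT pDC-like cells, which for 211 cells allows a share with a UMI of up to 1.42%.

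Bhlhe40 (chr6:108660629-108666925, plus strand) had a different order. Migratory DC-like cells, the mature dendritic cells that carry antigen to lymph nodes, were highest at 602 CPM in WT and 727 in KO. The cDC2-like cells held 430 and 492 CPM, and neutrophil-like cells 362 and 500 CPM, with overlapping intervals between these neighbours. Macrophage-like cells came next, at 238 and 253 CPM. Monocyte-like, cDC1-like and pDC-like cells lay between 85.6 and 126 CPM. The gene was also present in lymphoid classes, for example at 372 CPM in WT CD4 T cell-like cells.

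Irf5 (chr6:29526625-29541871, plus strand) was the most evenly spread member over the 7 myeloid classes of each library, though not once lymphoid classes are counted. The cDC1-like cells, which take up dead cells and cross-present antigen, held 199 CPM in WT and 218 in KO. Monocyte-like cells held 179 and 236 CPM, and the intervals of these leading classes overlapped in both libraries. The cDC2-like cells (134 and 173 CPM), macrophage-like cells (126 and 158 CPM) and migratory DC-like cells (113 and 133 CPM) followed. The lowest dendritic class was pDC-like at 54.5 and 76.0 CPM. CD8 T cell-like cells held 5.70 and 7.11 CPM. Tnpo3, whose 3′ end overlaps that of Irf5 on the other strand, was at 38.9 CPM in WT and 42.9 in KO macrophage-like cells.

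**Figure D1:**
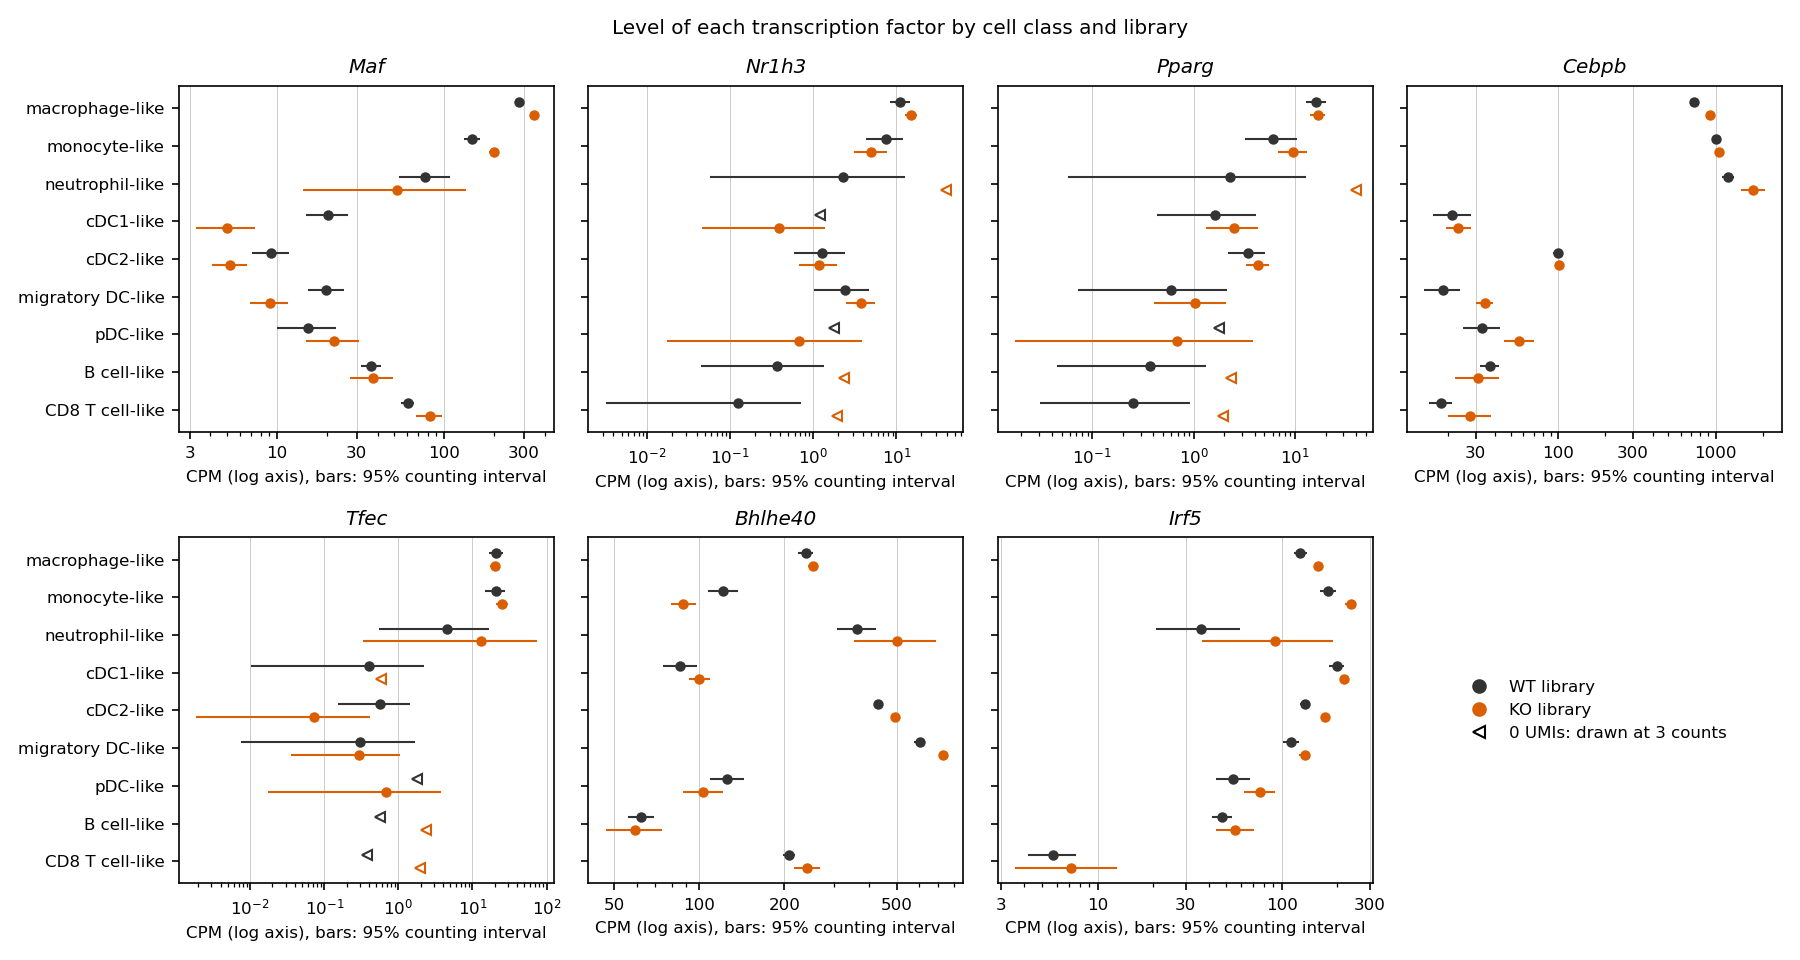
Each panel gives 1 member, with its level in CPM on a log axis for 7 myeloid and 2 lymphoid classes, WT in grey and KO in orange. Cebpb, Maf and Tfec were high in macrophage-like and monocyte-like cells and low in the dendritic classes, whereas Bhlhe40 peaked in migratory DC-like cells and Irf5 in cDC1-like and monocyte-like cells.

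The genes with the most similar pattern were taken over 14 points, the 7 myeloid classes in each library, by Pearson's r of log2(CPM + 1) among 5136 genes. The points share libraries and depth, so r is a description. Maf was closest to Apoe (r = 0.95), Cd84 (0.91) and the heme oxygenase gene Hmox1 (0.90). Nr1h3 was closest to the scavenger receptor gene Stab1 (0.95), the lysosomal protease gene Lgmn (0.94) and Itprid2 (0.93). Pparg was closest to the inhibitory Fc receptor gene Fcgr2b (0.96), the lipase gene Lpl (0.94) and Pla2g4a (0.94). Tfec was closest to Thbs1, Slc11a1 and Rhob (all 0.96), and Cebpb to Sde2, C3 and Gpat3 (0.98 to 0.99). Bhlhe40 was closest to Rest (0.91), Ddit4 (0.89) and the kinase gene Wnk1 (0.89), and Irf5 to Ube2l3 (0.94), Ahr (0.93) and Arpc3 (0.91). Among the members themselves, Maf and Tfec (0.94), Cebpb and Tfec (0.91), Nr1h3 and Pparg (0.81) and Maf and Cebpb (0.81) ran together. Some points rest on very few UMIs. In KO neutrophil-like cells Nr1h3 and Pparg had 0 UMIs and Tfec had 1. Bhlhe40 gave values between -0.25 and 0.12 with every other member.

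Macrophage-like cells were compared between genotypes first, since the Lyz2 locus that drives Cre is active in them and all 7 members had at least 50 UMIs there. No member differed by 1.5-fold in either direction. Of all 9421 genes with at least 50 UMIs, 5.36% were higher and 6.07% lower in KO by that measure. The ratios of 6 of 7 members were above 0, with a median log2 KO over WT of 0.29 beside -0.01 over all those genes. For 3 members the interval lay above 0. The shares of all genes with a ratio or an interval above 0 were not computed, so neither count has a background share beside it. Intervals are also narrow where UMIs are many. Cebpb was 1.249-fold higher in KO (log2 0.32, 0.26 to 0.38), Irf5 1.249-fold (0.32, 0.18 to 0.46) and Maf 1.22-fold (0.29, 0.20 to 0.38). Nr1h3 was 1.34-fold higher with an interval that reached below 0 (log2 0.42, -0.05 to 0.91). Bhlhe40 (0.09, -0.01 to 0.20), Pparg (0.05, -0.36 to 0.47) and Tfec (-0.07, -0.44 to 0.30) did not differ beyond counting error. Leiden clustering at resolution 0.5 left a small Ccl8-led cluster as the macrophage-like class, and there Cebpb was lower (-1.46), Irf5 at -0.05 and Nr1h3 higher (1.21). Thinning every cell to 1000 UMIs gave Tfec a log2 ratio of 1.08. The 9 monocyte markers, all detected, summed to 4302 CPM in WT and 5443 in KO macrophage-like cells, and their part in these ratios was not tested.

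Arg1 marks an arginine-consuming, often suppressive state of tumour macrophages. By the rule that at least 20% of the cells hold an Arg1 UMI, 2 of 3 macrophage-like clusters were Arg1-positive. The larger was led by Arg1 with Cxcl3, Inhba, Il1a and Tnf (358 WT and 675 KO cells) and had none of the 12 macrophage markers among its 10 leading genes, so that its name rests on markers lower in its order. The smaller was led by Ccl8, Pf4 and Folr2 (64 and 49 cells). The Arg1-negative cluster was led by C1qa, C1qb and C1qc (290 and 311 cells). Cells of the 2 Arg1-positive clusters, called Arg1-positive cells below whether or not they held an Arg1 UMI, were 59.3% of macrophage-like cells in WT. In KO they were 70.0%. Counted by cell, 172 of 712 WT and 271 of 1035 KO macrophage-like cells held an Arg1 UMI. Cells of the Arg1-positive clusters held more UMIs than those of the Arg1-negative cluster, with medians of 8314 against 1968 in WT and 9946 against 2885 in KO.

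Bhlhe40 was high in the Arg1-led cluster alone. Its level there was 312 CPM in WT and 294 in KO, against 91.4 and 104 CPM in the Arg1-negative cluster and 38.9 and 40.1 CPM, from 9 and 8 UMIs, in the Ccl8-led cluster. Both Arg1-positive clusters together held 293 and 287 CPM. Their ratio over the Arg1-negative cluster was 3.21-fold in WT (log2 1.68, 1.40 to 1.97) and 2.76-fold in KO (1.46, 1.24 to 1.70). By 1.5-fold, 8.48% of 6854 genes in WT and 7.75% of 8310 genes in KO were higher in Arg1-positive cells. Cebpb was 1.23-fold and 1.15-fold higher in them. Among cells with at least 4000 UMIs the Bhlhe40 difference was as large, up to a log2 ratio of 2.07 in WT. At Leiden resolution 2.0, however, the Arg1-led cluster stayed unnamed because more monocyte than macrophage markers stood among its leading genes. A Ccl8-led cluster alone was then Arg1-positive, and Bhlhe40 was lower in it (-2.08 in WT, -1.96 in KO).

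Maf and Pparg were higher in the C1q-rich Arg1-negative cluster of both libraries. Maf was at 459 CPM in WT and 478 in KO there, against 217 and 316 CPM in Arg1-positive cells, so 2.12-fold and 1.51-fold higher. Pparg was at 27.6 and 36.2 CPM against 11.8 and 12.3 CPM, or 2.33-fold and 2.94-fold higher. Over 6 alternatives, the log2 ratio of Maf in Arg1-positive over Arg1-negative cells ran from -1.55 to -0.13 in WT. In KO it ran from -0.72 to 0.05. For Pparg the ranges were -2.14 to -0.70 in WT and -1.91 to -0.45 in KO. Several other clusterings, listed below, gave no Arg1-negative cluster. Nr1h3 was 2.66-fold higher in the Arg1-negative cluster of WT (20.5 against 7.70 CPM) and 1.24-fold in KO (17.8 against 14.4 CPM), where the interval spanned 0. By 1.5-fold, 26.2% of genes in WT and 29.5% in KO were higher in Arg1-negative cells, so the members' counts stand against a large background. Tfec was 1.90-fold higher in Arg1-positive cells of WT (24.0 against 12.6 CPM) and did not differ beyond counting error in KO (19.5 against 21.5 CPM). Irf5 was level in WT (126 against 128 CPM) and 1.38-fold higher in Arg1-positive cells of KO (166 against 121 CPM).

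The picture by cell was different from that by cluster. When macrophage-like cells with at least 1 Arg1 UMI (172 WT, 271 KO) were set against those with 0, the log2 ratio of Maf was -0.13 in WT and 0.05 in KO and that of Bhlhe40 0.42 and 0.17. Irf5 was then lower in cells with Arg1, at 82.3 against 145 CPM in WT (log2 -0.82, -1.13 to -0.52) and at 141 against 167 CPM in KO (-0.25, -0.41 to -0.08). Within the Arg1-led cluster alone, where both kinds of WT cell had like depth (medians 9084 and 8913 UMIs), Irf5 was at 79.2 against 163 CPM in WT and at 141 against 187 CPM in KO. Maf in that cluster was 1.39-fold and 1.16-fold higher in cells with Arg1. Bhlhe40 did not differ there beyond counting error (log2 0.09, -0.10 to 0.28 in WT and 0.07, -0.06 to 0.20 in KO). In the same cluster, thinned to 5000 UMIs per cell (293 WT and 581 KO cells), Bhlhe40 was found in 52.2% of Maf-positive and 70.4% of Maf-negative WT cells, and in 54.7% and 67.1% of KO cells. Pearson's r per cell was -0.06 and -0.11 and, in sparse counts, no relation is read from it.

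**Figure D2:**
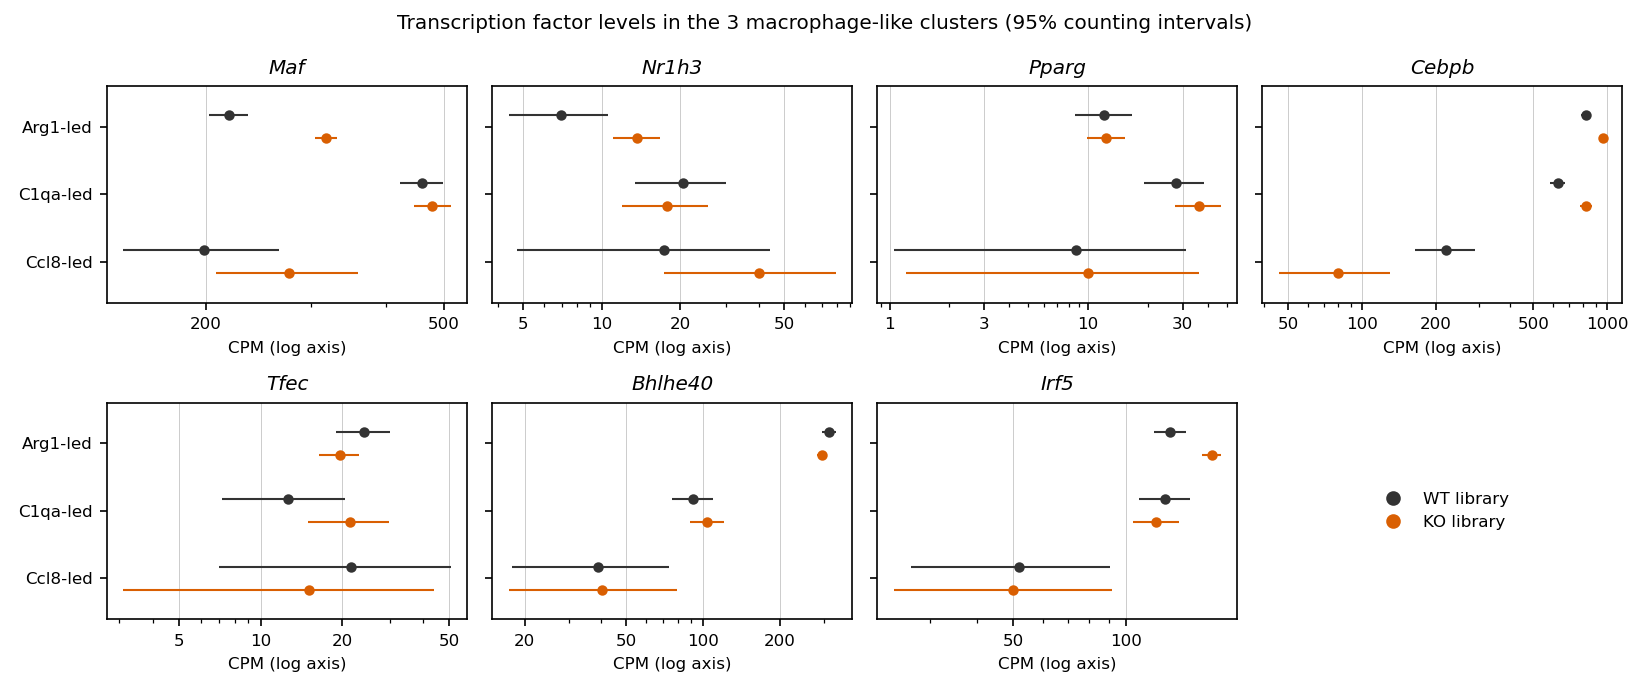
Levels in CPM on a log axis in the 3 macrophage-like clusters, named by their leading gene, with WT in grey, KO in orange and 95% counting intervals as bars. Maf and Pparg lay highest in the C1qa-led cluster, Bhlhe40 in the Arg1-led cluster, and Cebpb was lowest in the Ccl8-led cluster.

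Between genotypes, the Arg1-positive clusters held more Maf, Irf5, Cebpb and Nr1h3 in KO. Nr1h3 was at 7.70 CPM in WT and 14.4 in KO, a 1.87-fold difference (log2 0.90, 0.27 to 1.58) from 26 and 104 UMIs. It was the 1 member of 7 past 1.5-fold, beside 7.08% of 8576 genes higher and 5.33% lower. Maf was 1.46-fold higher (log2 0.54, 0.42 to 0.66), Irf5 1.32-fold (0.40, 0.24 to 0.56) and Cebpb 1.21-fold (0.28, 0.21 to 0.35). In the same cells the monocyte markers summed to 4551 CPM in WT and 5685 in KO and the macrophage markers to 5335 and 4763 CPM. Cebpb and Irf5 were higher in monocyte-like than in macrophage-like cells of both libraries. Maf and Nr1h3 were lower in monocyte-like cells of both libraries, Nr1h3 with overlapping intervals in WT. The part of these marker shifts in the ratios was not tested. In the Arg1-negative cluster Maf (459 and 478 CPM), Irf5 (128 and 121 CPM) and Nr1h3 (20.5 and 17.8 CPM) did not differ between libraries beyond counting error. Cebpb was higher in KO there as well, at 628 and 819 CPM. Tfec was the 1 member of 7 past 1.5-fold, at 12.6 and 21.5 CPM, with an interval that spanned 0 (log2 0.77, -0.12 to 1.72), beside 7.5% of 6068 genes higher and 4.8% lower. In the Ccl8-led cluster Cebpb went the other way, at 220.5 CPM in WT and 80.2 in KO (log2 -1.46, -2.37 to -0.63), from 51 and 16 UMIs.

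Monocyte-like cells showed differences of both signs. Maf was at 147 CPM in WT and 199 in KO (log2 0.44, 0.25 to 0.63), and Irf5 at 179 and 236 CPM (0.40, 0.23 to 0.57). Bhlhe40 was lower in KO, at 122 and 87.9 CPM (-0.47, -0.70 to -0.23), and its share of cells was 46.3% in WT and 34.7% in KO although KO cells were deeper (medians 7865 and 9260 UMIs). Clustering at resolution 0.5, which merged monocyte-like with macrophage-like cells, gave 0.06 for Bhlhe40, and leaving out cells with a T cell marker UMI gave -0.71. Cebpb did not differ beyond counting error (0.07, 0.00 to 0.15). Pparg was the 1 of 6 members with at least 50 UMIs past 1.5-fold, at 6.06 and 9.56 CPM from 13 and 40 UMIs, and its interval spanned 0. Of all 7547 genes, 6.74% were higher by that measure and 4.53% lower.

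Only Cebpb and Bhlhe40 reached 50 UMIs in neutrophil-like cells, of which KO had 24. Cebpb was at 1208 CPM in WT and 1738 in KO (log2 0.53, 0.24 to 0.80), and Bhlhe40 at 362 and 500 CPM (0.47, -0.09 to 0.98). Neither passed 1.5-fold, beside 14.1% of 1361 genes higher and 27.3% lower. T cell markers summed to 864 CPM in the WT cells and 26.3 CPM in the KO cells. With cells holding a T cell marker UMI left out, the log2 ratios were 0.40 for Cebpb and 0.38 for Bhlhe40, within the intervals above.

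**Figure D3:**
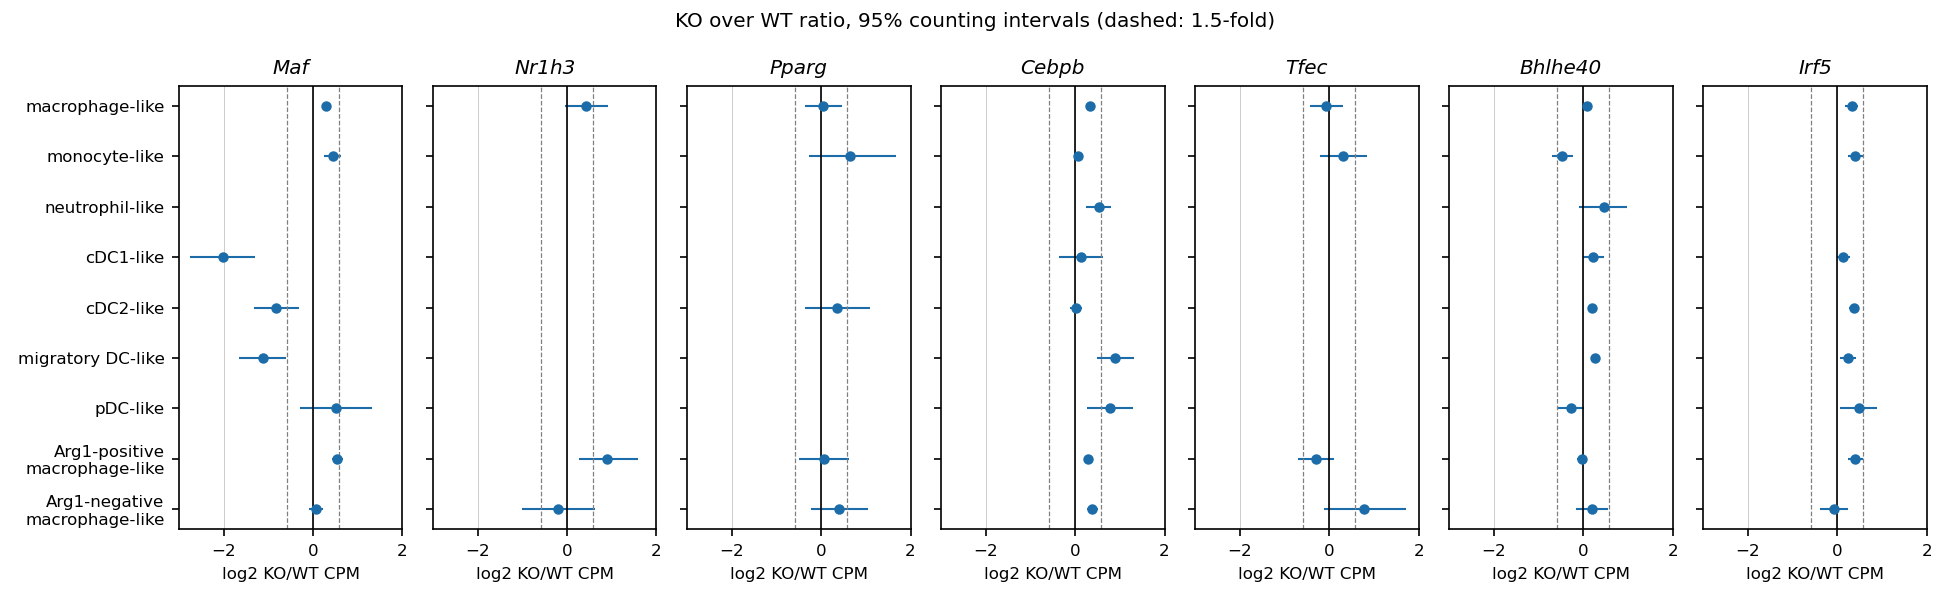
Log2 ratio of KO over WT CPM for each member with at least 50 UMIs in a class, with 95% counting intervals and dashed lines at 1.5-fold. Ratios in macrophage-like and monocyte-like cells lay mostly between 0 and the upper line, and the 3 Maf ratios in conventional and migratory dendritic cells lay below the lower line.

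In the dendritic classes Irf5 and Bhlhe40 were the members with ample counts. Irf5 was higher in KO cDC2-like (134 and 173 CPM, log2 0.36, 0.25 to 0.47), migratory DC-like (113 and 133 CPM, 0.24, 0.07 to 0.42) and pDC-like cells (54.5 and 76.0 CPM, 0.48, 0.07 to 0.89). In cDC1-like cells it differed by no more than counting error (0.14, -0.02 to 0.29). Its share of cells, thinned to 1000 UMIs, was 13.2% and 11.8% in cDC2-like cells, and its ratio in thinned cells was -0.18. In pDC-like cells the thinned shares were 7.58% and 6.34% and the ratio -0.26, and in migratory DC-like cells the thinned ratio was 0.07. Bhlhe40 was higher in KO cDC2-like (430 and 492 CPM, log2 0.20, 0.13 to 0.26) and migratory DC-like cells (602 and 727 CPM, 0.27, 0.20 to 0.35). These differences all lay under 1.5-fold. By that measure 4.05% of 10396 genes in cDC2-like, 5.2% of 8789 in migratory DC-like and 4.62% of 6533 in pDC-like cells were higher. In cDC1-like cells 4.34% of 8300 genes were higher, and in pDC-like cells 4.16% were lower.

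Maf was lower in the KO library in 3 dendritic classes. It was at 20.2 CPM in WT and 5.02 in KO cDC1-like cells (log2 -2.01, -2.75 to -1.30), at 19.7 and 9.05 CPM in migratory DC-like cells (-1.12, -1.65 to -0.60) and at 9.24 and 5.22 CPM in cDC2-like cells (-0.82, -1.33 to -0.32). In each class it was the 1 member past 1.5-fold in this direction, beside 3.24%, 7% and 4.72% of all genes. In cDC1-like cells the UMIs lay in few cells, 17 of 206 in WT and 16 of 354 in KO. The 5 cells with most Maf held 64.0% of them in WT and 57.7% in KO. After thinning, the log2 ratio was -0.79 in cDC1-like, -0.35 in migratory DC-like and -1.86 in cDC2-like cells. The thinned shares of these cells with a Maf UMI were below those of B cell-like cells in the same library. The Maf level of these classes was also below that of B cell-like cells (36.7 CPM in WT and 37.4 in KO). Whether B cell-like cells express Maf was not tested, nor was whether these ratios are a difference in expression. In WT migratory DC-like cells 59 of 66 Maf UMIs lay in the 153 of 432 cells that also held a T cell marker UMI. In WT cDC2-like cells it was 49 of 65 UMIs in 212 of 589 cells, and in WT cDC1-like cells 31 of 50 UMIs in 79 of 206 cells. In KO migratory DC-like cells it was 46 of 62 UMIs in 100 of 648 cells. In KO it was 23 of 71 UMIs in 157 of 964 cDC2-like cells and 7 of 26 in 50 of 354 cDC1-like cells. With such cells left out, the log2 ratio was 0.14 in cDC2-like, -0.42 in migratory DC-like and -1.70 in cDC1-like cells. In macrophage-like cells 502 of 1316 WT and 456 of 3067 KO Maf UMIs lay in such cells.

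**Figure D4:**
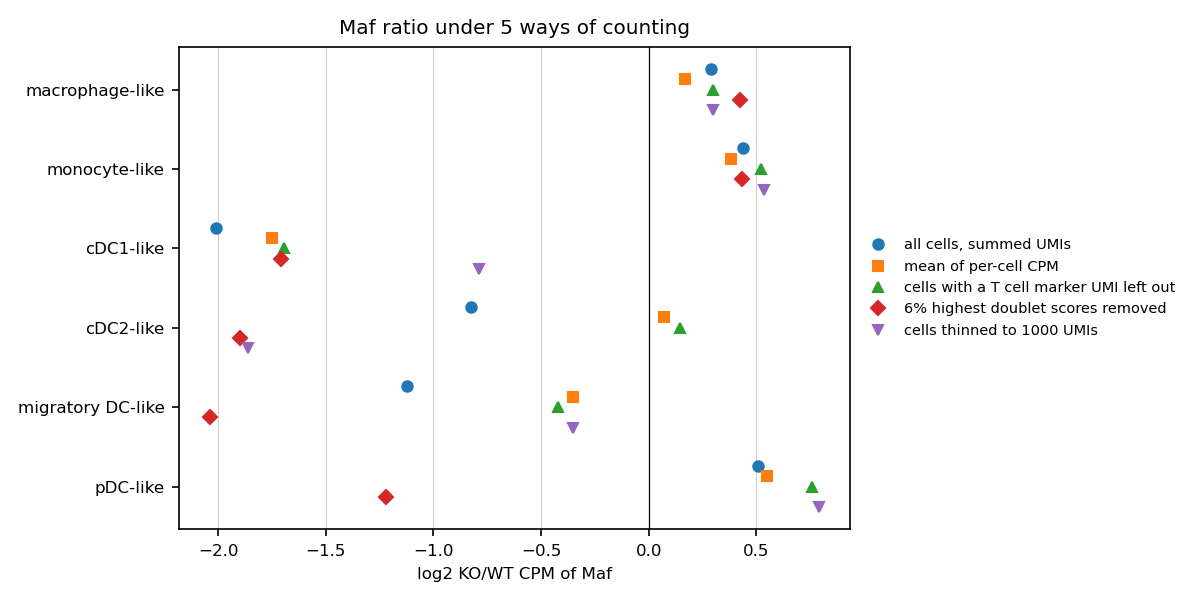
Log2 ratio of KO over WT CPM of Maf in 6 classes under 5 ways of counting, each with its own symbol. The macrophage-like and monocyte-like ratios stayed above 0 under all 5, while those of cDC2-like cells ran from -1.90 to 0.14.

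Cebpb was higher in KO in 2 dendritic classes in which it is scarce. It was at 18.5 CPM in WT and 34.3 in KO migratory DC-like cells (log2 0.89, 0.48 to 1.32) and at 33.2 and 56.8 CPM in pDC-like cells (0.78, 0.27 to 1.29). It was the 1 member past 1.5-fold and higher in each, beside 5.2% and 4.62% of all genes. After thinning, 0.959% and 2.66% of migratory DC-like cells held a UMI, no more than WT and KO B cell-like cells at 4.07% and 2.77%. In pDC-like cells the thinned share was 2.37% in WT and 4.23% in KO (6 of 142 cells, 1.57% to 8.97%), the KO value above that of KO B cell-like cells but with an interval that spans it. Removing the 6% of cells of highest doublet score gave -0.08 in migratory DC-like and 0.24 in pDC-like cells, whereas leaving out cells with a T cell marker UMI gave 1.73 in pDC-like cells. In cDC2-like cells, where Cebpb was more abundant, the ratio was 0.02 (-0.11 to 0.16).

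The families and linked genes of the members were described in macrophage-like cells from 13 lists, using genes with at least 20 UMIs. Of all 11386 such genes, 7.4% were at least 1.5-fold higher and 9.72% lower in KO, with a median log2 ratio of -0.02. Of 3 small MAF genes, which encode MAF family factors without an activation domain, 1 was past 1.5-fold and higher, Maff at 43.5 CPM in WT and 73.9 in KO, and the median was 0.57. Genes linked to Maf leaned lower in KO. Of 10 complement and scavenger genes, 4 were lower and 0 higher, with a median of -0.32. They were Lyve1 (4.30 and 0.79 CPM), Cd163 (2.37 and 1.13 CPM, interval spanning 0), Folr2 (24.5 and 11.96 CPM) and Gas6 (10.5 and 5.30 CPM). The Ccl8-led cluster that Folr2 helps to define was 8.99% of the macrophage-like cells in WT and 4.73% in KO, and its part in these values was not tested. Mrc1, the mannose receptor gene, was higher in KO at 167 and 243 CPM (0.54), short of 1.5-fold, and so in the direction of Maf.

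LXR and PPAR genes were mixed. None of 5 LXR partner genes passed 1.5-fold, the receptor partner Rxra being at 9.90 CPM in WT and 10.3 in KO. Of 13 LXR target genes 2 were higher and 2 lower, with a median of 0.18. The efferocytosis receptor gene Mertk was at 8.18 and 16.1 CPM (log2 0.98) and Mylip, which promotes loss of the LDL receptor, at 12.9 and 19.4 CPM (0.59). The cholesterol transporter genes Abca1 (0.52) and Abcg1 (0.57) lay just under the threshold. Cd5l, a secreted macrophage protein gene, was at 16.4 and 0.677 CPM (-4.59, from -6.09 to -3.41), and the desaturase gene Scd1 at 5.81 and 1.81 CPM (-1.69). Of 9 PPAR genes 1 was higher and 2 lower, with a median of -0.03. Cpt1a, which admits fatty acids to mitochondria, was at 18.5 and 31.4 CPM (0.76), whereas the lipoprotein lipase gene Lpl was at 274 and 139 CPM (-0.98) and Fabp4 at 52.9 and 32.9 CPM (-0.68).

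In the C/EBP family 1 of 6 genes was higher, Cebpg at 25.8 CPM in WT and 39.4 in KO (log2 0.61), and 0 were lower. Of 10 genes linked to C/EBPβ 1 was higher and 3 lower, with a median of 0.06. Il1rn, the interleukin-1 receptor antagonist gene, was at 898 and 1471 CPM (0.71). Arg1 was at 721 and 441 CPM (-0.71) and Serpinb2 at 119.6 and 53.8 CPM (-1.15). Lcn2 rested on low counts at 3.01 and 1.35 CPM. Cebpb and Arg1 thus had ratios of opposite sign in the same cells.

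The MiT family, with Mitf, Tfeb and Tfe3, had 0 of 3 genes past 1.5-fold, and of 11 lysosomal genes linked to it 1 was higher, the acid phosphatase gene Acp5 at 25.4 and 40.6 CPM (log2 0.68). Among 5 Bhlhe partners and clock genes Bhlhe41, the closest relative of Bhlhe40, was lower at 7.32 and 3.95 CPM (-0.89). In the IRF family 1 of 7 genes was past the threshold, the interferon-induced Irf7 at 93.6 and 226 CPM (1.27). Of 14 genes around Irf5 3 were higher and 2 lower, with a median of 0.13. Ifnb1, the interferon-β gene, was at 51.4 and 139 CPM (1.43), Il23a at 16.6 and 26.6 CPM (0.68), and Il12b rested on low counts at 1.29 and 2.48 CPM. Ccl5, which T cells also express, was at 377 and 214 CPM (-0.82), and Il12a, also on low counts, at 2.58 and 1.24 CPM. Adaptor and receptor genes above Irf5 such as Myd88 (0.13), Tlr7 (0.36) and Irak4 (-0.19) did not pass 1.5-fold. Of 17 further macrophage regulators 4 were higher and 1 lower, with a median of 0.32. Egr2 was at 123 and 223 CPM (0.86), Klf4 at 125 and 210.4 CPM (0.75), Klf6 at 972 and 1620.4 CPM (0.74) and Mef2c at 153 and 93.2 CPM (-0.71), while the lineage factor gene Spi1 was at 289 and 282 CPM.

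**Figure D5:**
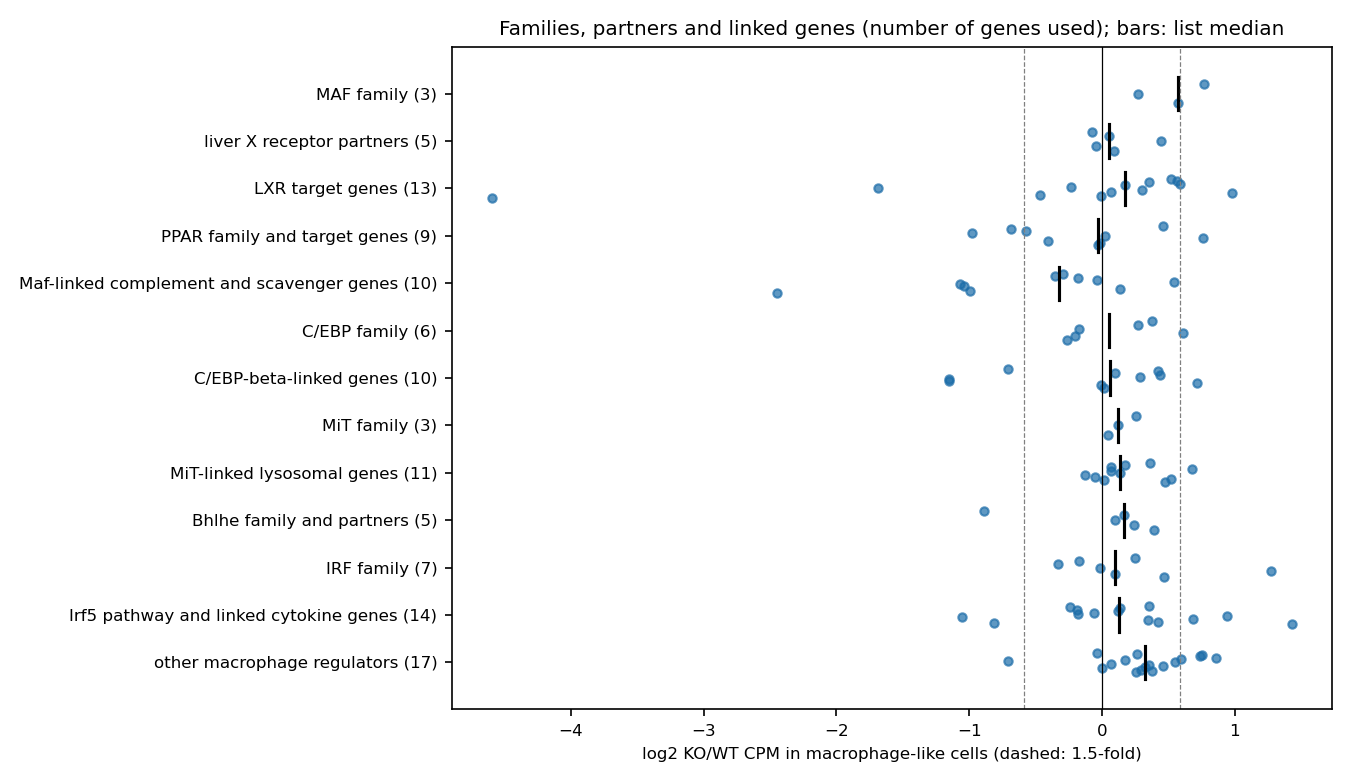
Each point is 1 gene of a list, placed by its log2 ratio of KO over WT CPM in macrophage-like cells, with the list median as a black bar and dashed lines at 1.5-fold. The MAF family had the highest median, at 0.57, and the Maf-linked complement and scavenger genes the lowest, at -0.32.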

How the data were processed

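Single-cell RNA libraries of sorted CD45+ cells (10x 3′ v3 chemistry, per the labels' protocols) were deposited by the authors as matrices of raw UMI counts per gene and barcode, not normalized. GRCm38, Seurat 4.0.1, bcl2fastq 2.20 and Cell Ranger 3.1.0 are listed in the submitters' processing notes, but Cell Ranger 4.0.0 in the file headers. The WT matrix held 55219440 UMIs in 9677 barcodes and the KO matrix 57047535 in 6356. Gene names came with the deposited files, and gene coordinates from GENCODE M21.

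Kept cells had 200 genes or more and a mitochondrial share of UMIs up to 15%, a limit that removed 734 WT and 665 KO barcodes. Scrublet, run by scanpy 1.11.5, called 0 WT and 1 KO doublets and so did not work as a filter here. Clusters came from 2000 variable genes without the 7 members, 30 components, 15 neighbours and Leiden resolution 1. Each cluster took the name of the class whose markers had the highest mean log2 ratio over the other clusters. Only classes with at least 3 raised markers counted (found in at least 10% of the cluster's cells and 2-fold above the rest). Clusters with a mean doublet score of at least 0.15, or led by cell cycle genes, stayed unnamed. So did those with more leading markers of another class, or with few UMIs and no leading marker. Unnamed clusters (20.1% of WT and 8.05% of KO cells) entered no class. Those with high doublet scores held 230, 187 and 24 WT cells and 14, 23 and 10 KO cells. The limits of this rule were chosen with the clusters in view, and the names are rebuilt, not the authors'.

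Summed UMIs of each class and library were turned into CPM, that is per 1000000 UMIs of that class, with exact Poisson intervals. Ratios have exact conditional binomial intervals and shares exact Clopper-Pearson intervals. For a count of 0, 3 counts gave the upper limit. The interval code was checked on simulated data with known answers. Alternatives changed the mitochondrial limit, doublet removal, clustering, cell weighting, thinning, scaling (edgeR 4.0.16 TMM), fold threshold and Arg1 rule. Leaving out cells with T cell markers, under 4000 UMIs or with shared barcodes was added after seeing the data. The members and gene lists were chosen with earlier results of these data known. Named genes were the 7 members, the 3 most alike genes of each, and list genes with the largest ratios past 1.5-fold or needed to describe a family. A few list genes short of 1.5-fold (Mrc1, Abca1, Abcg1, Myd88, Tlr7, Irak4, Spi1) were named after their values were seen. A few genes are not reported here and were left out of the lists and of the most alike genes.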

Additional observations from a re-analysis of the deposited data

Results flagged for a closer look

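The ratio of KO over WT had opposite signs in different classes for 2 members, with counting intervals on opposite sides of 0. The difference between classes was not tested, since there was 1 library per genotype. Maf had a log2 ratio of 0.29 in macrophage-like and 0.44 in monocyte-like cells, against -2.01 in cDC1-like, -1.12 in migratory DC-like and -0.82 in cDC2-like cells. Bhlhe40 had a log2 ratio of -0.47 in monocyte-like cells, against 0.20 in cDC2-like and 0.27 in migratory DC-like cells. In the dendritic classes Maf lay below B cell-like cells in CPM, whereas Bhlhe40 was well above them in cDC2-like and migratory DC-like cells. The monocyte-like Bhlhe40 ratio ran from -0.98 to 0.06 over 12 alternatives.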

How the results depend on the processing

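No paired analysis was possible because there was 1 library per genotype. In macrophage-like cells 0 members were past 1.5-fold in either direction. The number higher became 1 at Leiden resolution 0.5, 1 after thinning to 1000 UMIs and 1 at the lower fold threshold, and the number lower became 1 at resolution 0.5. All other alternatives left both at 0. The number of members higher in Arg1-positive cells of both libraries was 1, and became 0 at resolution 2.0, 2 after thinning and 0 when cells were split by their own Arg1 UMIs. The number lower was 2, and became 4 at resolution 2.0, 1 among cells of at least 4000 UMIs and 0 in the split by cell. Among ratios past 1.5-fold, signs turned for Maf in cDC2-like cells (0.071 as a mean of per-cell CPM, 0.14 without cells holding T cell markers) and for Cebpb in migratory DC-like cells (-0.0834 with high doublet scores removed). They also turned for Arg1-positive over Arg1-negative cells at resolution 2.0 in Nr1h3 (0.27 in WT) and Bhlhe40 (-2.08 in WT, -1.96 in KO), and for Maf in KO in the split by cell (0.0481). Of smaller ratios between genotypes with an interval off 0, Cebpb (-1.46) and Irf5 (-0.05) turned in macrophage-like cells and Bhlhe40 (0.06) in monocyte-like cells at resolution 0.5, and Irf5 in cDC2-like (-0.18) and pDC-like cells (-0.26) after thinning. The Arg1-positive ratios of Cebpb (-1.46) and Irf5 (-0.05) turned at resolutions 0.5 and 2.0, where the Ccl8-led cluster was the class. The causes were not tested, except that at resolution 2.0 the Arg1-led cluster belonged to no class.

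Of 46 ratios between genotypes, 23 left their counting interval after thinning, 9 as a mean of per-cell CPM, 2 under TMM scaling and 0 without shared barcodes. Whatever the interval, the sign changed for 15 of 46 ratios after thinning, 9 of 46 at resolution 2.0, 9 of 39 with high doublet scores removed, 6 of 39 at resolution 0.5, 6 of 46 as a mean of per-cell CPM and 5 of 46 without cells holding T cell markers, and for 0 to 4 under each other alternative. Of 39 ratios, 6 left their counting interval with at most 10% mitochondrial UMIs and 10 with high doublet scores removed. At resolution 0.5 it was 13 of 39, and with components centred per library 9 of 39. With components centred per library, with members among the variable genes, at resolution 0.5, with the lower mitochondrial limit or with high doublet scores removed, no Arg1-negative macrophage-like cluster was found, so that split has no value there and the Arg1-positive ratios are those of all macrophage-like cells. The background share of genes higher in macrophage-like cells was 3.56% at 200 UMIs and 11.05% with 1 UMI in each library. Counts in dendritic classes limit Nr1h3, Pparg and Tfec, and 24 KO neutrophil-like cells limit every member there.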
